A study of Homo sapiens with 2 samples.

Results

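Human aldehyde dehydrogenases (ALDH) oxidize aldehydes to carboxylic acids with NAD+ or NADP+ through a cysteine in the active site. They clear aldehydes that arise from lipid peroxidation, alcohol, amino acids and foreign compounds, and some of them make signaling molecules such as retinoic acid. ALDH activity is widely used as a mark of drug-tolerant or stem-like tumor cells, and in airway and lung tumors ALDH1A1, ALDH1A3 and ALDH3A1 are the isoenzymes most often discussed.

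Described here are 10 ALDH genes of 27685 listed genes, namely ALDH1A1, ALDH1A3, ALDH1B1, ALDH2, ALDH3A1, ALDH3A2, ALDH3B1, ALDH3B2, ALDH7A1 and ALDH18A1. They were found by gene symbol, and each had 1 entry. The set was selected on the FPKM values and counts of the same 2 libraries, in particular the high value of ALDH3A1 in H596, so the values below are descriptions and no test was made of them. The human family has 19 genes in the deposited table, and the 9 other genes are given for comparison. RNA was sequenced from untreated H2087 cells and untreated H596 cells, 1 library each, which the labels both give as lung adenocarcinoma. Both are established human cell lines. They were grown in RPMI medium with 10% fetal bovine serum, penicillin and streptomycin, and no other allele or agent is named. With a single library per line, nothing here can be checked against replicates. Bulk RNA cannot tell apart fewer cells that use a gene and less RNA of it in each cell.

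Levels are in FPKM, that is, fragments scaled by transcript length and by the size of the library. H2087 had 46961500 estimated counts in all, and H596 had 55387847. Each 95% interval was found by the Wilson method from the part of these counts that a gene holds, was converted to FPKM, and covers counting error only. If both mates of a read pair were counted, which is not stated, they are too narrow. Of the markers of lung adenocarcinoma cells, 8 of 9 reached 1 FPKM in the H2087 library and 6 of 9 did in H596, with sums of 8011 and 3686 FPKM. The lineage factor NKX2-1 stood at 110 FPKM in H2087 but at 0.508 in H596, and NAPSA, an aspartic protease of alveolar cells, at 21.9 and 0.0645. SFTPB, a surfactant protein gene, was low in both, at 0.123 FPKM in H2087 and 0 counts in H596. Of 7 squamous and basal markers, 7 reached 1 FPKM in H596 and 2 in H2087, where 3 had 0 counts, and the sums were 3865 and 41.1 FPKM. Most of each sum came from 1 gene, KRT13 in H596 (3558) and SOX2 in H2087 (39.1). SOX2 differed by less than 2-fold, with 56.5 FPKM in H596, and KRT14 was at only 1.33 there. TP63 stood at 55.2 FPKM in H596 and at 0.183 in H2087. The epithelial markers of the adenocarcinoma list were present in both libraries, with KRT7 at 608 FPKM, KRT19 at 2183 and CDH1 at 59.6 in H596. KRT19 was higher in H596 than in H2087 (561), CDH1 was nearly level (52.3), and KRT8, KRT18 and EPCAM were lower in H596, at 536, 234 and 65.0 FPKM against 2493, 3607 and 375. The data of H596 thus go against the labelled tumor type in NKX2-1, NAPSA and the squamous and basal markers, while the epithelial markers were well above 1 FPKM. The summed markers of stromal cells were 4.39 FPKM in H2087 and 10.7 in H596, mostly from DCN in the latter (9.77), and those of endothelial cells 0.413 and 0.816. Leukocyte markers summed to 129 and 25.7, nearly all from CD68 (128 and 25.6), and neuroendocrine ones to 0.120 and 0.872. PTPRC and CD3E had 0 counts in both.

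The family relationship can be seen in the bases around the codon of the active-site cysteine. They are shown for 8 of the members, to let the sequences of genes with very different levels be compared, and ALDH7A1 is not shown. Each coding exon was translated in its annotated frame and searched for glycine, glutamine or glutamate, any residue except leucine, proline, tyrosine and glycine, and then cysteine. This pattern occurred exactly 1 time in each of these 8 genes and 0 times in ALDH18A1, a larger enzyme that reduces glutamate. The 33 bases with the cysteine codon in the middle, in capitals, are given on the coding strand of GRCh37, the build of the deposited tables.
ALDH3A1 (chr17:19644466-19644498, minus strand, exon 6): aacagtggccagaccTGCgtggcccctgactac
ALDH3A2 (chr17:19561083-19561115, plus strand, exon 5): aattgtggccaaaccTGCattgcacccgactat
ALDH3B1 (chr11:67789106-67789138, plus strand): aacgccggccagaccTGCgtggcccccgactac
ALDH3B2 (chr11:67432958-67432990, minus strand, exon 7): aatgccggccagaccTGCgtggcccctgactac
ALDH1A1 (chr9:75531947-75531979, minus strand, exon 9): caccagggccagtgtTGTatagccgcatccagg
ALDH1A3 (chr15:101440821-101440853, plus strand, exon 9): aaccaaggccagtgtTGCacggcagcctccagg
ALDH1B1 (chr9:38396685-38396717, plus strand, exon 2): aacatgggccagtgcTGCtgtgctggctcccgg
ALDH2 (chr12:112230443-112230475, plus strand, exon 9): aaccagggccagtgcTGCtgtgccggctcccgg

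ALDH3B1 and ALDH3B2 were alike at 31 of these 33 bases and ALDH1B1 and ALDH2 at 30, whereas ALDH3A1 and ALDH1A3 were alike at 17. Over the whole coding sequence, ALDH3B1 and ALDH3B2 were identical at 86.5% of 1154 aligned bases and shared an unbroken stretch of 64 bases. The longest stretch shared by ALDH3A1 with any member was 27 bases, with ALDH3B2. Reads of the ALDH3B pair can therefore be harder to assign than those of the other members, and how such reads were divided is not stated.

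The members fell into 3 sets between the cell lines. ALDH3A1 and ALDH1A3 were higher in H596. ALDH7A1, ALDH2, ALDH3B1 and ALDH3B2 were higher in H2087. ALDH3A2, ALDH1B1 and ALDH18A1 differed by less than 2-fold on the log2(FPKM + 1) scale, and ALDH1A1 had 0 counts in both. By this measure, 2 of the 9 members with a mean FPKM of at least 1 were at least 2-fold higher in H596, and 18.2% of all 13048 such genes were. At least 2-fold lower were 4 of the 9, and 14.2% of all. Since the genes were chosen with these values known, nothing is read from the counts. The median difference of all compared genes was 0.12 on this scale, and that of the members was -0.45. Differences are H596 minus H2087 throughout.

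**Figure D1:**
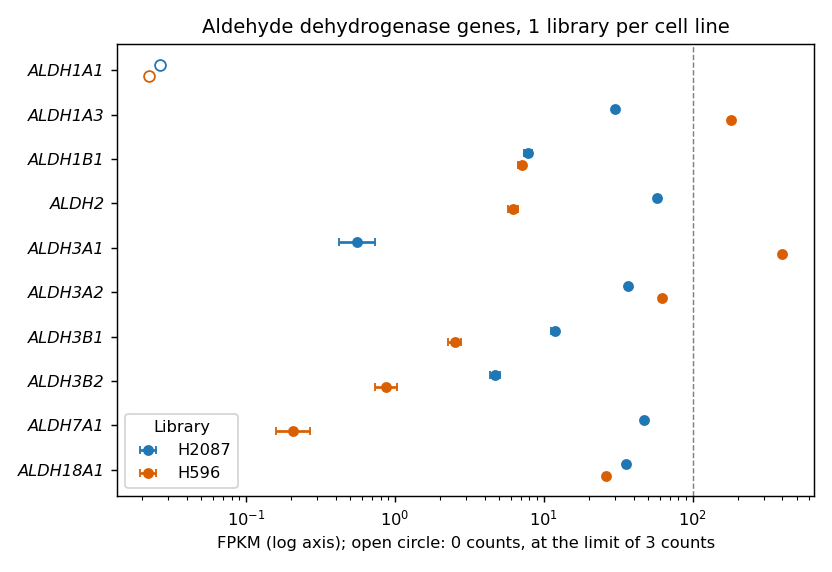
FPKM of the 10 ALDH genes (log axis) in H2087 (blue) and H596 (orange), 1 library each. Bars are 95% counting intervals, open circles mark 0 counts at the limit that 3 counts would give, and the dashed line is an FPKM of 100. ALDH3A1 lies at 0.556 in H2087 and at 398 in H596. In H596, ALDH7A1 and ALDH2 lie to the left of their H2087 values, at 0.207 and 6.22.

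The order of the levels also differed. In H2087 it was ALDH2, ALDH7A1, ALDH3A2, ALDH18A1, ALDH1A3, ALDH3B1, ALDH1B1, ALDH3B2, ALDH3A1 and ALDH1A1, from the highest FPKM to the lowest. Only ALDH3A2 and ALDH18A1 had overlapping counting intervals among neighbours in this order. In H596 the order was ALDH3A1, ALDH1A3, ALDH3A2, ALDH18A1, ALDH1B1, ALDH2, ALDH3B1, ALDH3B2, ALDH7A1 and ALDH1A1, and no neighbouring intervals overlapped. An FPKM of 100, the level the study used in H2087 to call a gene highly expressed, was reached by 0 members in H2087. In H596, for which the study names no such level, it was reached by 2, ALDH3A1 and ALDH1A3.

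The summed FPKM of the 10 members was 232 in H2087 and 683 in H596. Without ALDH3A1 and ALDH1A3, the sums were 201.7 and 104.9, so the other 8 members together were lower in H596. The largest parts of this were ALDH2 (57.8 in H2087 and 6.22 in H596) and ALDH7A1 (47.2 and 0.207). Of the 8, only ALDH3A2 was higher in H596 (36.5 and 61.9). All 19 family genes held 0.0654% of the summed FPKM of the library in H2087 and 0.185% in H596. In H2087 the family's transcripts were spread over several enzymes, with 18.9% of the family sum from ALDH2, 15.4% from ALDH7A1, 12.7% from ALDH9A1, which is not a member, 11.9% from ALDH3A2, 11.7% from ALDH18A1 and 9.81% from ALDH1A3. In H596, ALDH3A1 alone held 52.1% and ALDH1A3 23.6%. By estimated counts, which favor long transcripts, ALDH3A1 held 35.3% and ALDH1A3 32.9% in H596, and ALDH7A1 was the largest in H2087 with 21.5%.

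**Figure D2:**
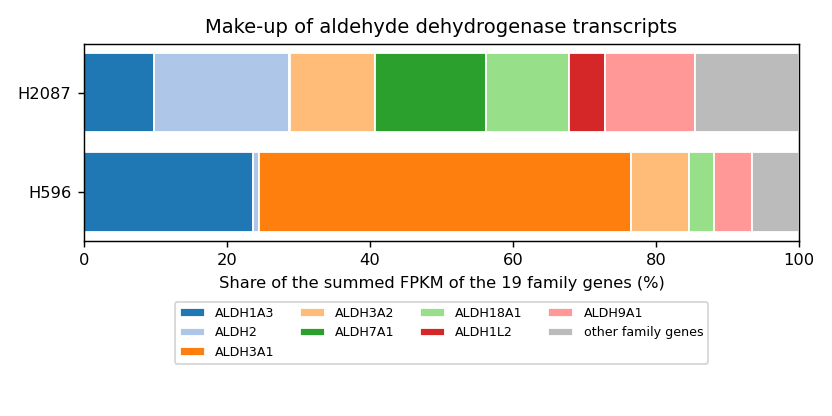
Share of the summed FPKM of the 19 ALDH family genes held by each gene (x axis, percent) in H2087 and H596. Genes under 4% in both libraries are joined in grey. ALDH3A1 fills 52.1% of the H596 bar and 0.181% of the H2087 bar.

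ALDH3A1 encodes a dehydrogenase of aromatic and medium-chain aldehydes that is abundant in the cornea and stomach. The gene (ID 218) spans 19641298 to 19651746 on chromosome 17 of hg19, the build of all positions here. ALDH3A1 was at 0.556 FPKM in H2087 (95% interval, 0.424 to 0.729), from 52 counts, and 398 in H596 (394 to 402), from 39550 counts. It ranked 130 among all genes in H596 and 13507 in H2087. The ratio was 715-fold (95% interval of the ratio of counts, 545 to 958), and the difference of 8.001 was the fourth highest among the 13048 compared genes. The H2087 side of the ratio rests on few counts.

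The transcripts of ALDH3A1 differed as well. In H596, NM_000691 had 333 FPKM and NM_001330150 had 62.2 FPKM, and both begin at 19651746, at the far end of the gene. Together with the 136 counts of NM_001135168 and the 109 of NM_001135167 they made up the gene value. In H2087, 48 of the 52 counts were given to NM_001135168, which begins at 19648772, and 4 to NM_000691. NM_001135168 thus held 92.3% of the H2087 counts (95% Wilson interval, 81.8 to 97.0) and 0.344% of the H596 counts (0.291 to 0.407). Its own level was low in both, at 0.518 FPKM in H2087 and 1.23 in H596. The Wilson intervals of transcript shares do not cover the error of dividing reads between overlapping transcripts. In the reference annotation, the transcript that begins at 19648772 has the same coding sequence of 1359 bases as the one that begins at 19651611.

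NM_001330150 was 167 bases shorter than NM_000691, which is the length of exon 2 (chr17:19648281-19648447). The annotation holds a transcript that lacks this exon and its start codon and has a coding sequence of 1140 bases. In H596, NM_001330150 had 5687 counts, 14.4% of those of the gene (95% Wilson interval, 14.0 to 14.7). The 162 coding bases of exon 2 (chr17:19648281-19648442, minus strand) are shown because the difference in length points to them, with the start codon in capitals.
ALDH3A1 exon 2: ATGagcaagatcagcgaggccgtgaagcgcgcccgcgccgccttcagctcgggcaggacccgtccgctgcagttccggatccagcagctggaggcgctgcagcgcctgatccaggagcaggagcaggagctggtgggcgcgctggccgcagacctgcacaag

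ALDH3A2, the neighbour of ALDH3A1, encodes the fatty aldehyde dehydrogenase of the endoplasmic reticulum, whose loss causes Sjögren-Larsson syndrome. The gene (ID 224) spans 19552064 to 19580908 on chromosome 17, 60.4 kb from ALDH3A1. Its FPKM was 36.5 in H2087 (95% interval, 35.6 to 37.4) and 61.9 in H596 (60.9 to 63.0). The ratio of 1.70 (1.65 to 1.75) was beyond counting error and under 2-fold.

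Within ALDH3A2, the division between its 2 listed transcripts was turned around. NM_000382 had 23.9 FPKM in H2087 and 4.68 in H596, and NM_001031806 12.6 in H2087 and 57.3 in H596. The share of NM_001031806 among the counts of the gene was 35.2% in H2087 (95% Wilson interval, 34.0 to 36.3) and 92.7% in H596 (92.2 to 93.1). The Wilson intervals do not cover the error of dividing reads between transcripts that share nearly all exons. In the annotation, the longer form has an additional exon 10 of 125 bases (chr17:19576464-19576588). The coding sequence then has 508 codons, and that of the shorter form has 485. NM_001031806 corresponds to the longer form by its length, 121 bases over NM_000382 with a listed end 4 bases earlier. As background, the shorter protein is held in the endoplasmic reticulum and the longer one in peroxisomes. The alternative ends of the coding sequence are shown because they tell the forms apart, with the stop codon in capitals. The longer form ends in exon 10 (chr17:19576464-19576547, plus strand) and the shorter in the last exon (chr17:19578871-19578885, plus strand).
ALDH3A2 longer form: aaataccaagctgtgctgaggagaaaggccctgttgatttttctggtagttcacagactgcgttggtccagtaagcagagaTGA
ALDH3A2 shorter form: gcagaatattacTGA

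**Figure D3:**
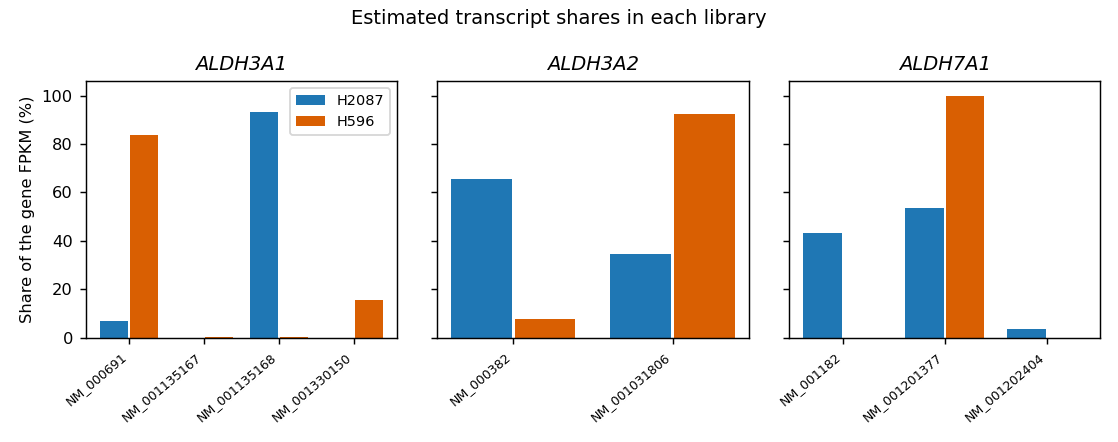
Share of the gene's FPKM (y axis, percent) given to each listed transcript of ALDH3A1, ALDH3A2 and ALDH7A1 in H2087 (blue) and H596 (orange). The larger ALDH3A2 bar is NM_000382 in H2087 (65.6%) and NM_001031806 in H596 (92.4%).

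ALDH1A3 and ALDH1A1 encode cytosolic enzymes that oxidize retinaldehyde to retinoic acid. ALDH1A3 (ID 220) spans 101419897 to 101456830 on chromosome 15. Its FPKM was 30.1 in H2087 (95% interval, 29.2 to 30.9) and 180.2 in H596 (178 to 182). It was thus 5.995-fold higher in H596 (5.82 to 6.17). NM_000693 was the main transcript in both libraries, with 89.9% of the FPKM in H2087 and 97.8% in H596. An overlapping listed gene, LOC101927751, had 161 counts in H2087 and 223 in H596, few against the 5151 and 36812 counts of ALDH1A3.

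ALDH1A1 (ID 216), on chromosome 9 from 75515578 to 75568233, had 0 counts in each library. The limit of 3 counts would be 0.0264 FPKM in H2087 and 0.0223 in H596, so it was not detectable at this depth. The third retinaldehyde dehydrogenase, ALDH1A2, had 3 counts in H2087 and 22 in H596, an FPKM of 0.0113 and 0.104. ALDH1A3 therefore held nearly all ALDH1A reads in both cell lines.

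ALDH2 and ALDH1B1 encode mitochondrial enzymes, of which ALDH2 is the main one for acetaldehyde. ALDH2 (ID 217) spans 112204691 to 112247789 on chromosome 12. Its FPKM was 57.8 in H2087 (95% interval, 56.3 to 59.3), the highest of the members there, and 6.22 in H596 (5.78 to 6.69). It was 9.30-fold higher in H2087 (8.61 to 10.1). ALDH1B1 (ID 219), on chromosome 9 from 38392661 to 38398662, had 7.85 FPKM in H2087 (7.41 to 8.31) and 7.11 in H596 (6.73 to 7.52). These intervals overlapped. The level in H2087 was 1.10-fold that in H596 (1.02 to 1.20), and the difference of -0.13 became 0.04 with TPM.

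ALDH7A1, also called antiquitin, oxidizes the semialdehyde of lysine breakdown and betaine aldehyde. The gene (ID 501) spans 125877533 to 125931082 on chromosome 5. Its FPKM was 47.2 in H2087 (95% interval, 46.3 to 48.1), from 11153 counts, and 0.207 in H596 (0.160 to 0.267), from 58 counts. It was 228-fold higher in H2087 (176 to 301), and its difference of -5.32 ranked 31 from the lowest among the compared genes. In H2087 the counts were divided between NM_001201377 (5961), NM_001182 (4822) and NM_001202404 (370), and in H596 all 58 were given to NM_001201377. NM_001201377 and NM_001182 have the same listed position and length, so the division between them cannot be interpreted.

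ALDH3B1 and ALDH3B2 encode membrane-associated relatives of ALDH3A1 that act on medium- and long-chain aldehydes. ALDH3B1 (ID 221) spans 67776017 to 67796749 on chromosome 11 and ALDH3B2 (ID 222) spans 67429633 to 67448685, with 327 kb between them. ALDH3B1 had 11.8 FPKM in H2087 (95% interval, 11.2 to 12.4) and 2.52 in H596 (2.29 to 2.78). ALDH3B2 had 4.68 FPKM in H2087 (4.32 to 5.08) and 0.869 in H596 (0.732 to 1.03). Both were higher in H2087, by 4.68-fold (4.197 to 5.24) and 5.39-fold (4.45 to 6.56), whose intervals overlap. Both thus differed in the direction opposite to ALDH3A1, whose active-site window was alike to each of theirs at 29 of 33 bases. Over the whole coding sequence, ALDH3A1 was nearest to ALDH3A2, with 66.9% identical bases. The values were 65.3% for ALDH3B1 and 65.2% for ALDH3B2.

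ALDH18A1 encodes the mitochondrial synthase that begins the making of proline and ornithine from glutamate. The gene (ID 5832) spans 97365686 to 97416567 on chromosome 10. Its FPKM was 35.9 in H2087 (95% interval, 35.0 to 36.8) and 26.1 in H596 (25.3 to 26.8). It was 1.38-fold higher in H2087 (1.33 to 1.43). Of its 10 listed transcripts, NM_002860 held 76.2% of the FPKM in H2087 and 78.8% in H596.

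Among the 9 other family genes, 6 had a mean FPKM of at least 1. ALDH16A1 and ALDH5A1 were at least 2-fold higher in H596, ALDH1L2 was at least 2-fold lower, and 3 were neither. Of all compared genes, 18.2% were higher and 14.2% lower. ALDH1L2, the mitochondrial 10-formyltetrahydrofolate dehydrogenase, had 15.2 FPKM in H2087, from 5477 counts, and 0.0187 in H596, from 8 counts, a ratio of 810 (95% interval, 411 to 1878). ALDH5A1, the succinic semialdehyde dehydrogenase, had 3.08 FPKM in H2087 and 9.77 in H596. ALDH16A1 had 4.83 FPKM in H2087 and 16.5 in H596. ALDH9A1, which acts on aminobutyraldehydes, was nearly level at 38.8 in H2087 and 40.6 in H596. ALDH4A1 (4.99 and 7.35) and ALDH6A1 (6.85 and 5.79) also differed by less than 2-fold. ALDH1L1 had 22 counts in H2087 and 0 in H596, and ALDH8A1 26 and 0. The difference of ALDH1L2 was thus large, while ALDH16A1 and ALDH5A1 differed by 3.42-fold and 3.17-fold in the other direction.

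Genes that work with the members were given in lists by role. Among the 20 retinoid genes, 15 were compared, of which 10 were at least 2-fold higher in H596 and 1 was lower, where 18.2% of all compared genes were higher and 14.2% lower. Their median difference was 1.96, against 0.12 for all compared genes. STRA6, the cellular importer of retinol, had 1.84 FPKM in H2087 and 52.8 in H596. DHRS9, a retinol dehydrogenase, had 5.11 FPKM in H2087 and 111 in H596. RDH10, which makes the retinaldehyde that ALDH1A3 uses, had 19.8 FPKM in H2087 and 81.5 in H596. RARB, a retinoic acid receptor that is itself a retinoic acid target, had 0 counts in H2087 and 982 in H596, at least 234-fold higher against a limit of 3 counts. The gene that was lower in H596 was FABP5, a fatty acid and retinoic acid carrier, with 101 FPKM in H2087 and 10.3 in H596. The receptor genes RARA and RARG differed by less than 2-fold. RARA had 7.51 FPKM in H2087 and 8.19 in H596, and RARG 33.2 and 38.1. CYP26A1, too low to be compared, had 18 counts in H2087 and 0 in H596, and CYP26B1 had 16 and 630. ALDH1A3 and most of the compared retinoid genes were thus higher in the same library, as were 6 of the 7 squamous and basal markers given above. Whether this difference in lineage markers has a part in any of the ALDH differences was not tested.

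**Figure D4:**
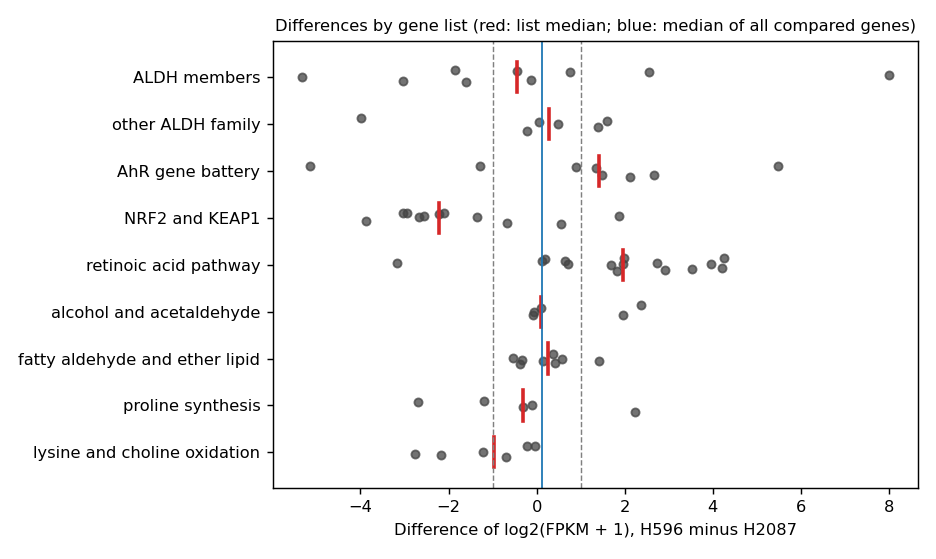
Difference of log2(FPKM + 1), H596 minus H2087 (x axis), of each compared gene in 9 lists. Each grey point is 1 gene, red lines are list medians, the blue line is the median of all compared genes (0.12), and dashed lines mark 2-fold. The points of the retinoid list lie mostly to the right and those of the NRF2 list mostly to the left.

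ALDH3A1 is a classical member of the gene battery of AHR, the dioxin receptor. AHR had 18.4 FPKM in H2087 and 48.5 in H596, and its partner ARNT 8.96 and 17.6. Of the 10 genes of this list, 8 were compared, of which 5 were at least 2-fold higher in H596 (18.2% of all compared genes) and 2 were lower (14.2% of all), with a median difference of 1.41. CYP1A1, the usual marker of AHR activity, had 3.32 FPKM in H2087 and 26.3 in H596. UGT1A6, a glucuronosyltransferase, had 0 counts in H2087 and an FPKM of 43.7 in H596. Genes of the UGT1A locus share exons, so this value is uncertain. NQO1, the quinone reductase of both the AHR and the NRF2 battery, went the other way, with 326 in H2087 and 8.24 in H596. So did TIPARP, the other lower gene of this list, with 30.7 FPKM in H2087 and 12.1 in H596.

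The NRF2 list was lower in H596 at most genes. NFE2L2, which encodes NRF2, had 42.3 FPKM in H2087 and 62.6 in H596, and its inhibitor KEAP1 11.8 and 46.2. All 11 genes were compared, of which 8 were at least 2-fold lower in H596 (14.2% of all compared genes) and 1, KEAP1, was higher (18.2% of all), with a median difference of -2.22. TXNRD1, a thioredoxin reductase, had 499.7 FPKM in H2087 and 33.2 in H596. GCLC, the rate-limiting enzyme of glutathione synthesis, had 179 and 21.0 FPKM. ALDH3A1, which is also listed among NRF2 targets in some tissues, was high in the library in which these genes were low. ALDH7A1, ALDH2 and the ALDH3B pair were low in that library too. Whether AHR or NRF2 has a part in any of the ALDH differences was not tested.

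Of the 12 genes of alcohol and acetaldehyde metabolism, 5 were compared, of which 2 were at least 2-fold higher in H596 (18.2% of all compared genes) and 0 lower (14.2% of all), with a median of 0.10 (-0.01 after centring on all genes). AKR1A1, an aldehyde reductase, had 25.1 FPKM in H2087 and 134 in H596. ACSS1, a mitochondrial acetyl-CoA synthetase, had 0.221 and 3.77 FPKM. ADH1A, ADH1B, ADH4 and ADH6 had 0 counts in both libraries, and ADH1C and ADH7 had 0 counts in H2087 and 35 and 99 in H596, 0.346 and 0.758 FPKM. ADH5, the formaldehyde-oxidizing enzyme, was the only alcohol dehydrogenase of the list with an FPKM of at least 1 (42.6 and 39.9).

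Of the 9 genes of fatty aldehyde and ether lipid metabolism, which bear on ALDH3A2, 8 were compared, and 1 was at least 2-fold higher in H596 and 0 lower, against 18.2% and 14.2% of all compared genes. This was FAR1, a fatty acyl-CoA reductase, with 14.6 FPKM in H2087 and 40.5 in H596. HACL1, a peroxisomal lyase that yields fatty aldehydes, had 6.42 and 10.0 FPKM. The list median was 0.25, near that of all genes.

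Of the 6 proline genes, 5 were compared, of which 2 were at least 2-fold lower in H596 (14.2% of all compared genes) and 1 higher (18.2% of all), with a median of -0.30. OAT, which interconverts ornithine and the product of ALDH18A1, had 269 FPKM in H2087 and 41.0 in H596. PRODH, which breaks proline down, had 1.92 and 12.8 FPKM. Of the 10 genes of lysine and choline oxidation, 6 were compared, of which 3 were at least 2-fold lower in H596 and 0 higher, beside the same shares of all genes, with a median of -0.96. BHMT2, a methyltransferase, had 731 counts in H2087 and 0 in H596, at least 267-fold lower in H596. CHDH, which makes the betaine aldehyde that ALDH7A1 can oxidize, had 633 counts and 2. It had 3.56 FPKM in H2087 and 0.00951 in H596.

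The 20 compared neighbours of each member along the chromosome, 10 on each side, were examined next. Their span ranged from 0.844 Mb around ALDH3B2 to 29.1 Mb around ALDH1B1, so they are not equally near. The difference of ALDH3A1 (8.001) lay beyond that of every neighbour, which ranged from -3.51 to 2.06 with a median of -0.24. The nearest compared genes, SLC47A2 and ULK2, were also higher in H596. SLC47A2, which lies between ALDH3A2 and ALDH3A1, had 0 and 3.18 FPKM in H2087 and H596, and ULK2 had 0.554 and 3.43 FPKM. ALDH7A1 (-5.32) likewise lay beyond its neighbours, which ranged from -2.48 to 3.07 with a median of -0.60, with 15 of 20 below 0. For ALDH2 (-3.03) the neighbours had a median of -0.83, with 9 of 20 at least 2-fold lower in H596 (14.2% of all compared genes). ACAD10 beside it had 11.9 FPKM in H2087 and 7.27 in H596, and MAPKAPK5-AS1 17.4 and 7.28. For ALDH1A3 (2.54) the neighbours had a median of 0.67, with 18 of 20 above 0, where the median of all compared genes was 0.12. Of these neighbours, 4 of 20 were at least 2-fold higher, near the 18.2% of all compared genes. The medians around ALDH3B1 and ALDH3B2 were -0.49 and -0.39. For 5 of the 6 members that differed at least 2-fold, the median of the neighbours had the sign of the member and was smaller, and for ALDH3A1 it had the other sign. ALDH3B1 and ALDH3B2 shared most of their neighbours, and each was a neighbour of the other, so these 2 of the 5 are not separate regions. Among the other members, the median was 1.02 around ALDH1B1 (-0.13), with 11 of 20 at least 2-fold higher (18.2% of all compared genes). It was 0.66 around ALDH1A1 (0 counts in both) and -0.24 around ALDH3A2 (0.75). Around ALDH18A1 (-0.45) it was -0.14.

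**Figure D5:**
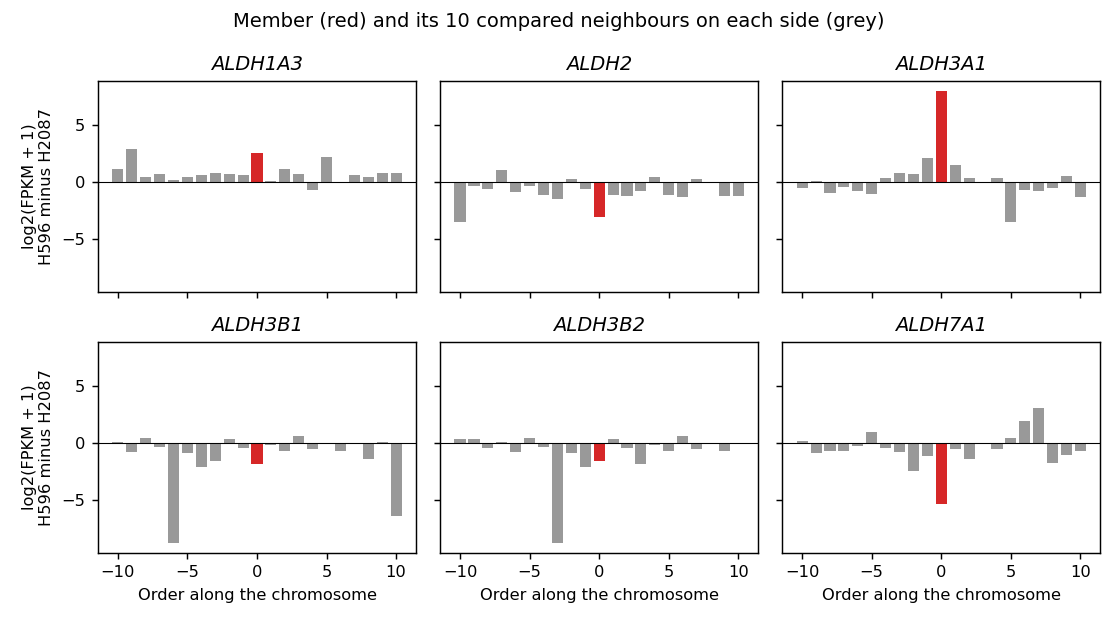
Difference of log2(FPKM + 1), H596 minus H2087 (y axis), of the 6 members that differed at least 2-fold (red) and of the 10 compared genes on each side (grey), in chromosome order. ALDH3A1 and ALDH7A1 extend beyond all of their neighbours.

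The 5 genes whose pair of values was nearest to that of ALDH3A1, by Euclidean distance of the log2(FPKM + 1) values over 2 libraries, were CSTA, CYBA, TRIM29, SYT8 and TNFSF10, with distances of 0.75 to 1.28. CSTA had 0 counts in H2087 and an FPKM of 301.1 in H596, and TNFSF10 had an FPKM of 1.58 and 191. Over 2 libraries this likeness means only that both values were close.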

How the data were processed

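RNA-seq data of 1 H2087 and 1 H596 library were used. Per the labels, stranded mRNA libraries were made with the TruSeq kit. The submitters' processing notes name bcl2fastq 1.8.4, Trimmomatic, HISAT2 2.0.5 and StringTie 1.3.3b, and the builds hg19 and GRCh37. The authors deposited whole-number estimated counts, and how they were rounded is not stated. Count divided by FPKM and length varied by at most 0.198% among transcripts with over 500 counts, so the counts were treated as derived from coverage. FPKM, also as deposited, was scaled by transcript length and library size. Transcript length, deposited beside them, was used for the limit of 3 counts.

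The 13048 genes whose 2 FPKM values averaged 1 or more were compared by log2(FPKM + 1), and a difference of at least 1 was called 2-fold. With 1 library per cell line no p-value was computed. Intervals of ratios are exact conditional intervals of 2 counts, scaled to FPKM. Alternatives were TMM scaling (edgeR 4.0.16, R 4.3.3), centring, TPM, a pseudocount of 0.1, other filters, transcript values and shares of counts. Bases were read from GRCh37 and exons from a GENCODE annotation lifted to that build. The lifted frame of ALDH3B1 was not intact, so exons were translated separately. The active-site bases of ALDH7A1 are not reported here. The 10 members and all lists (retinoid, AHR, NRF2, alcohol, fatty aldehyde, proline, lysine and choline, and cell type markers) were chosen with earlier results of these data known. Named are the members, the other family genes, AHR, ARNT, NFE2L2, KEAP1, the 2 largest differences per list, the 5 genes nearest to ALDH3A1 and the nearest neighbours. The values of RDH10, RARB, FABP5, CYP1A1, NQO1, ADH1A, ADH1B, ADH1C, ADH4, ADH5, ADH6, ADH7 and the marker genes singled out were seen before they were named. So were those of TIPARP, RARA, RARG, CYP26A1 and CYP26B1. Python 3.11.15, numpy 2.4.6, pandas 2.3.3, scipy 1.17.1 and matplotlib 3.10.9 were used.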

Additional observations from a re-analysis of the deposited data

How the results depend on the processing

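The number of members that differed at least 2-fold, 6 of the 9 compared, was 6 with TMM scaling, centring, TPM, a pseudocount of 0.1 and no filter, 7 with the highest transcript and 4 of 6 with a mean FPKM of at least 10, where fewer genes were compared. The additional member by the highest transcript was ALDH3A2, whose difference became 2.10, from 0.75, because NM_001031806 alone was used. The difference of ALDH1B1 changed sign with TPM, from -0.13 to 0.04, and the differences of the other members kept their sign under each of these alternatives. ALDH3A1 ranged from 7.85 to 9.24, ALDH7A1 from -7.27 to -4.44, and ALDH2 from -3.20 to -2.95. The median of all compared genes was 0.12, against 0.01 after TMM scaling and 0.30 for TPM. By estimated counts in place of FPKM, the share of ALDH2 in the family of H2087 was 11.0% and not 18.9%, and that of ALDH3A1 in H596 was 35.3% and not 52.1%, since counts grow with transcript length. No paired analysis was possible because only 1 library per line was analysed, and for the same reason no replicate could be left out. Depth limits ALDH3A1 in H2087, with 52 counts, and ALDH7A1 in H596, with 58 counts.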

Other observations

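Some neighbours of the members that are in none of the lists differed strongly between the libraries. They were chosen after their values were seen. GSTP1, a glutathione transferase near ALDH3B2 and ALDH3B1, had an FPKM of 434 in H2087 and 0 counts in H596. GAL, which encodes the peptide galanin and lies beyond ALDH3B1, had one of 87.3 in H2087 and 0.0862 in H596. FAM216A, the tenth compared gene before ALDH2, had one of 25.7 in H2087 and 1.33 in H596. FBN2, a fibrillin gene beyond ALDH7A1, went the other way, with 0.00778 in H2087 and 7.47 in H596.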
